A study of Homo sapiens with 30 samples.

Results

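RNA captured near the nuclear lamina without fixation was compared with RNA of the nuclear fraction in HEK293FT, a human embryonic kidney cell line. The comparison used 4 libraries, native lamina replicates 1 and 2 and nuclear replicates 1 and 2, out of 8 RNA libraries in the series, and 16504 of the 27630 genes in the count tables had enough counts to be tested. The lamina RNA was obtained with APEX2, an engineered peroxidase that labels molecules in its close surroundings, fused to lamin B1. According to the labels all 4 libraries came from asynchronous cells into which the fusion was transfected with a lipid reagent, RNA was isolated with Trizol, and libraries were prepared with ribosomal RNA depletion. The nuclear group is RNA of fractionated nuclei, and the native lamina group is RNA recovered after labelling without paraformaldehyde (PFA). The remaining libraries were 2 of the cytosolic fraction and 2 of PFA-fixed lamina RNA, made from the same line and transfection. The promoter of the construct, a library without labelling and the origin of the replicates from separate cultures are not given in the sources used here. Within these bulk libraries a smaller number of cells with an RNA and less of that RNA per cell cannot be told apart.

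The nuclear lamina is a meshwork of lamin filaments beneath the inner nuclear membrane, and it binds heterochromatin and anchors nuclear pores. Nuclei hold unspliced and retained RNAs, such as small nucleolar RNAs and many long non-coding RNAs, while most spliced messenger RNAs leave through the pores for the cytoplasm. Replication-dependent histone genes stand apart from other protein-coding genes because they have no introns and their messenger RNAs end in a stem-loop in place of a poly(A) tail.

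Total counts were between 5992656 and 8557777 in the 4 libraries. Across genes, which are not independent replicates, log2 CPM (counts per 1e6 counts of the library after scaling) correlated at 0.966 between the native libraries and at 0.960 between the nuclear ones. The native libraries correlated with the nuclear ones at 0.888 to 0.905, and with the cytosolic ones at 0.902 to 0.928. Of 6 genes known from HEK293 cells, the 6 together took 90.4 and 71.8 CPM of total counts in nuclei and 259 and 355 at the native lamina. They took 324 and 257 CPM in the cytosolic fraction, which overlaps the native range. NEFL alone made up 177 and 263 CPM at the native lamina, while PAX2, LHX1 and EYA1 had 9.68 CPM or less in each library. Of the 6 erythroid markers of K562, another line of the series, HBG1, HBG2 and HBE1 had no count in any of the 8 libraries, and the summed level stayed between 0.137 and 2.59 CPM. Among 6 gut markers of HCT116, CDX1 had 1 count in all, CDX2 was higher at the native lamina (36.1 and 40.9 CPM against 9.21 and 13.6) and VIL1 lower (1.05 and 1.17 against 10.1 and 11.03). These 2 genes went in opposite directions, and their part in the results was not tested.

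The test found 639 genes higher at the native lamina, 3.87% of those tested, and 568 genes lower, 3.44%, by edgeR's quasi-likelihood test with a Benjamini-Hochberg adjusted p under 0.05. Together they were 7.31% of the genes. By the same test 6.99% were higher and 6.77% lower than in the cytosolic fraction. Compared with the PFA lamina no gene was called higher or lower by edgeR, with 924 higher and 897 lower at an unadjusted p under 0.05. Against the nuclear fraction, whose libraries these comparisons share, the PFA lamina had 9.63% higher and 7.81% lower, and the cytosolic fraction 21.2% and 26.1%. The genes called lower moved further, and they lay at lower levels. The median of their mean CPM over the 4 libraries was 14.4, against 52.2 for the higher genes. With at least 10 counts asked for in every library, 298 of the 568 lower and 635 of the 639 higher genes were tested. The part of level in the size of the changes was not tested. The median log2 fold change was 1.33 among the higher genes and -2.12 among the lower ones, and 45 higher but 302 lower genes changed by over 4-fold. The median over all genes tested was -0.07. Cytosolic over nuclear, the medians were 1.58 for the higher and -2.68 for the lower genes. Native lamina over cytosolic, they were -0.19 and 0.54. These medians share libraries with the calls. Before adjustment, 2216 higher and 2538 lower genes had a p under 0.05. The balance of directions depended on the scaling: 52.9% of calls were higher with TMM scaling, 87.5% with total counts (1656 higher, 237 lower), which moved the median of all genes by 0.28, and 38.7% with upper-quartile factors (412 and 652), which moved it by -0.15.

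The calls rest on having all 4 libraries. Of the 639 higher genes, 131 were still called without native replicate 1, 96 without native replicate 2, 12 without nuclear replicate 2 and 1, the histone gene HIST1H2AL, without nuclear replicate 1. Of the 568 lower genes, 36, 37, 12 and 9 were still called. No gene of either set changed direction in any of these fits or under any other setting tried. Below, fold changes are log2 values of the native lamina over the nuclear fraction with the standard error (SE) of the fit, and levels are normalised CPM in replicates 1 and 2.

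**Figure D1:**
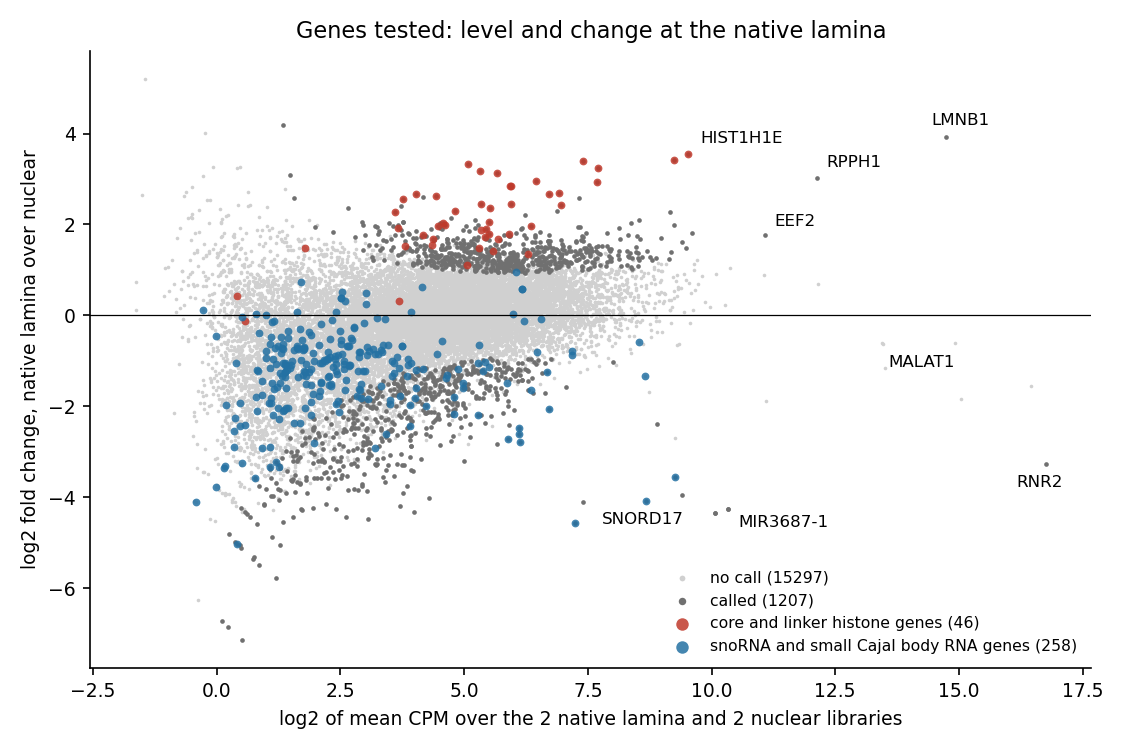
Each point is 1 of the 16504 genes tested, with the log2 of its mean CPM over the 4 libraries on the x axis and its log2 fold change, native lamina over nuclear, on the y axis. The 46 core and linker histone genes (red) lie almost all above 0 and the 258 small nucleolar and Cajal body RNA genes (blue) mostly below it.

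LMNB1, which encodes lamin B1 and is the gene carried by the construct, was the most abundant gene called higher. It lies on chromosome 5 (hg19, 126112315 to 126172712) and its counts cover its annotated exons. The endogenous and the transfected message were not counted apart. Which of these exonic bases the construct carries is not given in the sources used here. It measured 3231 and 3507 CPM in the nuclear libraries and 76510 and 26170 CPM at the native lamina. Both native libraries lay above both nuclear libraries, but they differed from each other by more than the nuclear pair. The fitted change was 3.93 (SE 0.66, edgeR adjusted p 0.010), with 2.97 without native replicate 1 and 4.52 without native replicate 2, and the call was lost without either nuclear replicate. It remained in the comparison with the cytosolic fraction, at 3.28 (edgeR adjusted p 0.00902).

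The other lamin genes are not part of the construct. LMNB2, the gene of lamin B2, measured 96.2 and 132.8 CPM in nuclei and 282.2 and 376.8 at the native lamina, without overlap. The difference was 1.52 (SE 0.30, edgeR adjusted p 0.0165). Its call was kept without native replicate 1 and lost without each of the other 3 libraries, where its fold change was 1.31 to 1.79. LMNA, the gene of lamins A and C, measured 49.96 and 59.3 CPM in nuclei and 53.8 and 72.6 at the native lamina, which overlap (0.21, SE 0.28, edgeR adjusted p 0.661). In the cytosolic fraction LMNB2 stood at 394.7 and 445.5 CPM, above the native lamina in both libraries, and the difference between those groups was no call (-0.35, edgeR adjusted p 0.437).

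Apart from the lamins, genes of the nuclear envelope lists had no call. None of 18 genes of the inner nuclear membrane and of the complex linking it to the cytoskeleton passed (edgeR). None of 31 nuclear pore genes did either. Over all genes 3.87% were called higher and 3.44% lower, so having no call is near that share in lists this small. At an unadjusted p under 0.05, 1 membrane gene was higher, and 4 pore genes were higher and 1 lower. The Wald test of DESeq2 called 0 and 1 of them higher, and a fit of only the 4 libraries compared called 1 and 4 higher. LBR, the lamin B receptor, had 207.1 and 181.6 CPM in nuclei and 192.9 and 155.9 at the native lamina. TMPO, which encodes the lamina-associated polypeptides, had 124.0 and 146.4 CPM against 220.1 and 229.7, a difference that missed the threshold (0.73, edgeR adjusted p 0.103). Medians were 0.17 for the membrane list and 0.13 for the pore list, and turned to -0.04 and -0.08 with total counts without RNR1, RNR2 and MIR6087, and the pore list to -0.01 with upper-quartile factors. EHMT2, a histone H3 lysine 9 methyltransferase gene, was the 1 of 12 genes for that mark and its reader HP1 that was higher (1.09, SE 0.27, edgeR adjusted p 0.0336). That is 8.33% of the list, against 3.87% of all genes, and the call was lost with upper-quartile factors. The annotation places EHMT2 on several haplotype sequences, so its counts are less certain.

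The replication-dependent histone genes were the group with the largest share of higher genes among the lists examined. All 3 linker histone genes tested were higher, with log2 fold changes of 3.39 to 3.54, and so were 33 of 43 core histone genes tested (76.7%, against 3.87% of all genes), with none lower. The table holds 67 core and 6 linker histone genes, and the rest had too few counts to be tested. Since a gene that is low in nuclei could enter through its level at the lamina, these counts describe the tested genes and not the whole family.

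The start regions of the 3 linker histone genes are shown because these genes were the most changed of the histones and carry known promoter elements at like distances. Each line holds the 120 bases before the annotated start, 5′ to 3′, from RefSeq on GRCh38.p14, with the letters AAACACA (known as the H1 box), CCAAT and TATATA in capitals where they occur.
HIST1H1E (H1-4), chr6:26156209-26156328, plus strand: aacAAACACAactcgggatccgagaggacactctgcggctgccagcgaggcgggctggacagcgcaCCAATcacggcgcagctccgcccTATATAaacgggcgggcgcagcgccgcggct
HIST1H1C (H1-2), chr6:26056471-26056590, minus strand: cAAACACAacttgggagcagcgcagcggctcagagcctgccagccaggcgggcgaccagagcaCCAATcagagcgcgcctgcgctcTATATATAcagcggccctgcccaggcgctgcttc
HIST1H1D (H1-3), chr6:26234988-26235107, minus strand: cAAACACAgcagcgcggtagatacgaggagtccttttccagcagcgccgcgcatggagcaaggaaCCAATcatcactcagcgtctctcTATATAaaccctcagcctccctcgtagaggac

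The H1 box begins 117 to 119 bases, CCAAT 54 to 57 bases and TATATA 31 to 34 bases before the start in these 3 genes. Over windows of 300 bases around the start and on both strands, AAACACA occurred in all 6 linker histone promoters, in 3 of 54 core histone promoters and in 5.64% of 35116 promoters. CCAAT was in all 6, in 81.5% of the core histone promoters and in 34.6% of all. TATATA was in 5 of 6, in 18.5% and in 3.99%, and TATAAA in 3 of 6, in 68.5% and in 11.5%. Where these 2 overlap, as in TATATAAA, both were counted. These matches describe letters in the windows and were not related to the measurements by a test.

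HIST1H1E, which encodes linker histone H1.4 (hg19, chromosome 6, 26156559 to 26157343), had 88.7 and 144.8 CPM in nuclei and 1540 and 1179 at the native lamina. Its log2 fold change was 3.54 (SE 0.42, edgeR adjusted p 0.00182), and its native level also stood above the cytosolic levels of 631.3 and 886.4 CPM, a difference that was no call (0.84, edgeR adjusted p 0.150). HIST1H1C, encoding H1.2, had 70.0 and 135.2 CPM against 1285 and 918.6, and HIST1H1D, encoding H1.3, 25.7 and 33.3 CPM against 356.0 and 263.5. In all 3 genes the native libraries lay above the nuclear ones without overlap and replicate 1 was the higher of the native pair. All 3 calls held without native replicate 1, native replicate 2 or nuclear replicate 2 and none held without nuclear replicate 1, where the fold changes were still 3.23, 3.03 and 3.22.

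Core histone genes of each class were higher. Called were 11 of 13 H2A genes (median log2 fold change 1.98), 11 of 13 H2B genes (2.45), 7 of 9 H3 genes (1.76) and 4 of 8 H4 genes (1.74), which package DNA as the octamer of the nucleosome. HIST1H2AL, an H2A gene on chromosome 6 (27833107 to 27833576), rose from 4.67 and 7.56 CPM to 71.8 and 51.3 (3.33, SE 0.36, edgeR adjusted p 9.2e-04), and its call held with each of the 4 libraries left out. HIST2H2BE, an H2B gene on chromosome 1 (149856010 to 149858232), rose from 27.2 and 52.4 CPM to 373.6 and 382.4 (3.25, SE 0.42, edgeR adjusted p 0.00306). HIST1H2BL (3.18), HIST1H2AI (3.13), HIST1H2AM (2.96), HIST1H2BD (2.94) and HIST1H3D (2.86) followed. Since HIST1H3D shares exonic bases with HIST1H2AD (2.84), their counts were not separate. The sequences of these genes are closely alike, so reads could be split between paralogs.

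Of the 9 core histone genes tested outside chromosome 6, 6 were called higher, and the median of all 9 was 1.98, against 2.0 for the 34 tested on chromosome 6. Core histone genes without a call were mostly high too: HIST1H4C had 21.2 and 28.0 CPM against 118.7 and 38.9 (1.68, edgeR adjusted p 0.0519) and HIST1H2BJ 20.1 and 32.3 against 96.8 and 41.9. In 39 of 43 genes both native libraries lay above both nuclear ones, a pattern that 28.2% of all tested genes had. The lowest value in the list was -0.13, for HIST2H2BC, which had fewer than 1 CPM in native replicate 1. The number of core histone genes called was 14 without native replicate 1, 37 without native replicate 2, 1 without nuclear replicate 1 and 8 without nuclear replicate 2, with medians between 1.51 and 2.50.

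Together the core and linker histone genes took 0.0756% and 0.101% of counts in nuclei and 0.845% and 0.579% at the native lamina. They took 0.640% and 0.696% in the cytosolic fraction, which overlaps the native range, and 0.512% and 0.359% at the PFA lamina. Against the cytosolic fraction the median log2 fold change of the native lamina was -0.54 for core histones, with 2.94 for the cytosolic over the nuclear fraction. Both comparisons with the nuclear fraction share its 2 libraries. Linker histones had 0.57 against the cytosolic fraction, so they lay on the other side of 0 from the core histones there, with no call for any of the 3.

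**Figure D2:**
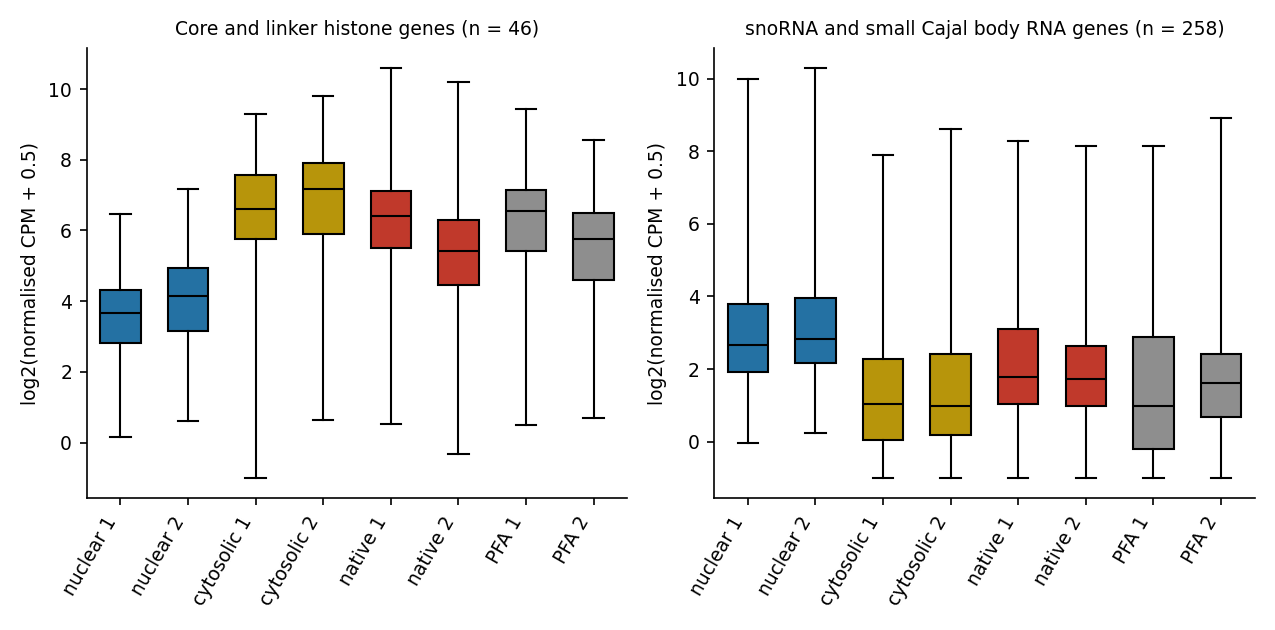
Boxes give the quartiles and whiskers the full range of log2(normalised CPM + 0.5) over the genes of 2 groups in each of the 8 libraries. The histone genes (left) have medians of 12.1 and 17.3 CPM in nuclei and 84.1 and 41.9 CPM at the native lamina, and the small RNAs (right) 5.84 and 6.53 CPM in nuclei and 2.96 and 2.80 CPM at the native lamina.

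Replacement histones, which are made throughout the cell cycle from polyadenylated messages, were split. Of 10 tested, 5 were higher (50%, against 3.87% of all genes) and none lower (against 3.44%). H1F0, encoding H1.0, had 120 and 162.9 CPM in nuclei and 396.1 and 814 at the native lamina (2.097, SE 0.38, edgeR adjusted p 0.0129, and 1.501 without native replicate 2). H1FX (1.56), H3F3C (1.67) and the macroH2A genes H2AFY (1.16) and H2AFY2 (1.01) were also called, the last not with DESeq2 size factors. H2AFZ, encoding H2A.Z, had 49.8 and 61.3 CPM against 61.5 and 49.4, so its groups overlapped. H3F3B had 107.9 and 177.8 CPM against 236.9 and 243.4 (0.75, edgeR adjusted p 0.139). Without native replicate 1 the list held 2 calls, and without any 1 of the other 3 libraries it held 0 (edgeR).

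Genes that serve the making of histone messages moved in both directions. LSM11, a part of the U7 particle that cuts the histone message, was higher (1.15, SE 0.29, edgeR adjusted p 0.0354). NPAT, which encodes the activator of histone transcription, was lower, with 90.6 and 129.5 CPM in nuclei and 44.9 and 48.8 at the native lamina (-1.23, SE 0.29, edgeR adjusted p 0.0295). SLBP, encoding the protein that binds the histone stem-loop, had 39.1 and 69.9 CPM against 81.6 and 100.3 and no call (0.74, edgeR adjusted p 0.151). These 3 genes were chosen after their values were seen, and the calls of LSM11 and NPAT were lost with any of the 4 libraries left out.

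**Figure D3:**
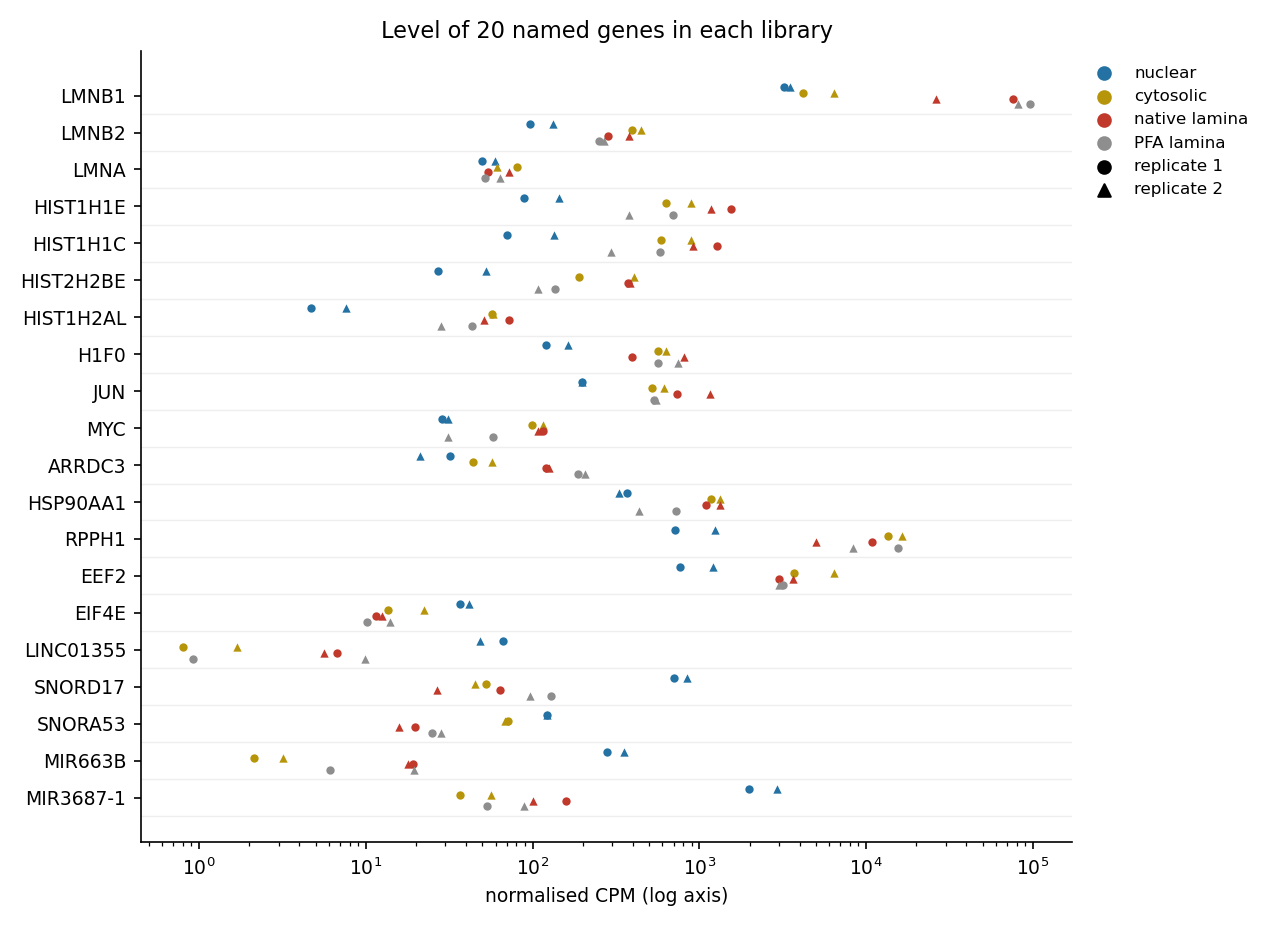
Points give normalised CPM on a log axis for 20 named genes in each of the 8 libraries, coloured by group, with circles for replicate 1 and triangles for replicate 2. Histone genes at the native lamina (red) lie near the cytosolic levels (yellow), LMNB1 lies near the PFA lamina (grey), and SNORD17 and MIR3687-1 lie far below the nuclear levels (blue).

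Intronless coding genes outside the core and linker histone lists held calls in both directions. Of 317 protein-coding genes that had a single exon block and were outside those lists, 33 were higher (10.4%, against 3.87% of all genes) and 5 lower (1.58%, against 3.44%). Of the 33, 4 encode other histones: H1F0, H3F3C, H1FX and H2AFX. The median log2 fold change was 0.38, against 0.01 for all protein-coding genes. The members of highest change included JUN, H1F0 and RHOB, a small GTPase gene that measured 129.6 and 203.4 CPM in nuclei and 400.0 and 717.7 at the native lamina (1.75, SE 0.37, edgeR adjusted p 0.0218). PCBP1, encoding a poly(C)-binding protein, had 1.62, SOX4, a transcription factor gene, 1.38, CENPB, encoding a protein of centromeric DNA, 1.24, and HNRNPA0 1.22. H2AFX, encoding the H2A.X histone of damaged chromatin, had 44.2 and 45.5 CPM against 105.4 and 139.4 (1.45, SE 0.27, edgeR adjusted p 0.0141). These genes were chosen after their values were seen. Calls in the class fell to 9 without native replicate 1, 2 without native replicate 2 and 0 without either nuclear replicate, while the medians stayed between 0.30 and 0.42.

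Of 30 immediate early genes, which respond within minutes to signals, 6 were called higher (20%, against 3.87% of all genes). None was lower, against 3.44% of all genes. JUN, a subunit of the AP-1 factor on chromosome 1 (59246463 to 59249785), had 196.7 and 198.8 CPM in nuclei and 739.3 and 1161 at the native lamina. Its native levels stood above every other library in the series, and its log2 fold change was 2.26 (SE 0.33, edgeR adjusted p 0.00517). MYC, a transcription factor of growth, had 28.6 and 30.9 CPM against 115.1 and 108.4 (1.91, SE 0.32, edgeR adjusted p 0.00988), with cytosolic levels of 99.2 and 115.2. KLF10 (1.70), ZFP36L1 (1.61), DUSP1 (1.35) and KLF6 (1.35) were also called. FOS and EGR1 had values of 1.16 and 1.15 and varied widely between replicates: EGR1 measured 35.5 and 132.1 CPM in nuclei and 101.3 and 271.0 at the native lamina, which overlap. Calls in the list numbered 3 without native replicate 1, 2 without native replicate 2 and 0 without either nuclear replicate.

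The alpha-arrestins are adaptors for ubiquitin ligases and for the uptake of membrane transporters. ARRDC3 had 32.1 and 21.1 CPM in nuclei, 120.8 and 124.7 at the native lamina, 44.1 and 57.1 in the cytosolic fraction and 186.3 and 206.7 at the PFA lamina. Both lamina preparations were above both fractions, and the log2 fold change was 2.20 (SE 0.30, edgeR adjusted p 0.00397), with 1.28 against the cytosolic fraction (edgeR adjusted p 0.0155). ARRDC4 had 30.2 and 27.3 CPM against 62.1 and 105.4 (1.54, SE 0.30, edgeR adjusted p 0.0163), and TXNIP, a glucose-regulated inhibitor of thioredoxin, 50.9 and 58.9 against 89.3 and 165.9 (1.22, SE 0.34, edgeR adjusted p 0.0458). ARRDC1 (-0.47) and ARRDC2 (-0.35) had no call, with edgeR adjusted p-values of 0.376 and 0.640. ARRDC4 stood at 110.0 and 92.6 CPM in the cytosolic fraction, which overlaps its native levels (-0.28, edgeR adjusted p 0.540). The native over cytosolic median of the list was -0.25. The 3 calls were 60% of the 5 genes tested, against 3.87% of all genes. All 3 held without native replicate 1, 1 held without native replicate 2 and 0 without either nuclear replicate. TXNIP was also lost with upper-quartile factors.

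Heat shock genes, encoding chaperones, had 6 of 13 called higher (46%, against 3.87% of all genes) and none lower (against 3.44%). Their median log2 fold change was 1.19. HSP90AA1 had 367.6 and 328.5 CPM in nuclei and 1097 and 1332 at the native lamina (1.80, SE 0.35, edgeR adjusted p 0.0145), and HSP90AB1, the constitutive HSP90 gene, 290.9 and 381.8 against 826.4 and 1224 (1.61, SE 0.35, edgeR adjusted p 0.0235). HSPA4 (1.43), HSPB1 (1.41), HSPA1B (1.38, with paralog HSPA1A at 1.19 without a call) and BAG3 (1.20) rose as well. In 12 of 13 genes both native libraries were above both nuclear ones. The cytosolic over nuclear median of the list was 1.89, and the native over cytosolic median -0.90. Calls numbered 2 without native replicate 1 and 0 without each of the other libraries.

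Calls among messages for translation and protein turnover varied in number with the fit. EEF2, elongation factor 2, was among the most abundant higher genes, with 768.7 and 1203 CPM in nuclei and 3021 and 3669 at the native lamina (1.76, SE 0.41, edgeR adjusted p 0.0292). Its cytosolic levels of 3713 and 6392 CPM were above both native levels. EEF1A2 had 1.94 and EIF3G, which shares bases with a neighbouring gene, 0.99, while EIF4E, the cap-binding factor, fell from 36.7 and 41.6 CPM to 11.4 and 12.5 (-1.71, SE 0.33, edgeR adjusted p 0.0156). These were the 4 calls among 37 translation factors (8.11% higher and 2.7% lower, against 3.87% and 3.44% of all genes). The Wald test of DESeq2 called 11 of the 37 higher and a fit of only the 4 libraries compared 16, each with 1 lower. EEF1A1 had 166.4 and 242.9 CPM against 252.4 and 291.7 and no call (0.41, edgeR adjusted p 0.432). Of 78 ribosomal protein genes tested, 5 were higher, among them RPL4 (1.70), RPL3 (1.43), RPL19 (1.30) and RPL35 (1.17), and RPS21 (-1.55) was lower. That is 6.41% higher, and the list's median of 0.01, which became -0.13 with upper-quartile factors, was near that of all genes although the cytosolic over nuclear median was 1.77.

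Of 36 proteasome genes tested, 6 were higher (16.7%, against 3.87% of all genes) and none lower (against 3.44%). Genes were assigned to the particles by symbol alone, which does not show that each encodes a subunit. Of the 6, 5 had PSMC or PSMD symbols, of 20 tested, counted here with the regulatory particle, which recognises and unfolds substrates. They were PSMC3 (1.74), PSMD2 (1.48), PSMD8 (1.38), PSMD10 (1.28) and PSMD4 (1.03). The other, PSMA7 (1.30), was counted with the proteolytic core, of 16 tested. PSMC3 had 26.8 and 28.5 CPM in nuclei and 99.7 and 84.7 at the native lamina (SE 0.30, edgeR adjusted p 0.0115). The difference between the particles was not tested. Mitochondrial ribosomal protein genes had 5 higher of 78 (6.41%, against 3.87% of all genes), led by MRPS34 (1.82), and none lower. Their median of 0.23 became -0.02 without native replicate 1. Nuclear-encoded subunits of oxidative phosphorylation had 1 of 76, COX6A1, lower (-1.59, and -2.21 without native replicate 1). Without nuclear replicate 1 or 2 none of the lists of this and the preceding paragraph had a call by edgeR. Without native replicate 1 they held 1 translation factor, 0 ribosomal protein, 1 proteasome, 0 mitochondrial ribosomal protein and 2 oxidative phosphorylation calls, and without native replicate 2 they held 0, 0, 2, 2 and 0.

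Cell cycle genes were called in both directions. The DNA replication list had 13.2% higher and 2.63% lower, and the mitosis list 10.5% and 2.63%, against 3.87% and 3.44% of all genes. Of 38 genes of DNA replication, MCM2 (1.46), MCM3 (1.38), RFC1 (1.19), GMNN (1.12) and UHRF1 (0.98) were higher and PCLAF, a partner of the sliding clamp, lower (-1.35). MCM2, a subunit of the replicative helicase, had 125.3 and 133.2 CPM in nuclei and 393.3 and 316.2 at the native lamina (SE 0.30, edgeR adjusted p 0.0195). Of 38 genes of mitosis, INCENP (1.37), MKI67 (1.25), TPX2 (1.19) and PLK1 (1.14) were higher and KIF20B (-1.25) lower. The replication list had no call with any 1 of the 4 libraries left out (edgeR), and the mitosis list had 2, INCENP and MKI67, without native replicate 1 and 0 without each of the others. UHRF1, TPX2, PLK1 and MKI67 were not called with upper-quartile factors.

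RPPH1, the RNA subunit of ribonuclease P, which trims transfer RNA precursors, was the second most abundant gene called higher. It lies on chromosome 14 (20811230 to 20811570), is made by RNA polymerase III and had 717.8 and 1244 CPM in nuclei and 10910 and 5017 at the native lamina. The log2 fold change was 3.02 (SE 0.55, edgeR adjusted p 0.0129), and 2.37 without native replicate 1. The call held without native replicate 2 and with no other library left out. In the cytosolic fraction it stood at 13500 and 16350 CPM, above the native levels. RN7SL3, an RNA of the signal recognition particle that also comes from polymerase III, went the other way, from 696.1 and 913.0 CPM to 221.4 and 85.02 (-2.39, SE 0.48, edgeR adjusted p 0.0168; -3.23 without native replicate 1, which alone kept the call). It was also below the cytosolic levels of 2101 and 3002 CPM (-4.06, edgeR adjusted p 0.00427), and it belongs to a family of near-identical copies.

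Some RNAs were called above both fractions at the native lamina. There were 7, or 0.0424% of the genes tested: LMNB1, ANKRD1, ARRDC3, ZC3H6, MKI67, PPP1R12A and MTDH. ZC3H6, encoding a zinc finger protein, had 19.3 and 19.6 CPM in nuclei, 17.9 and 26.4 in the cytosolic fraction and 52.7 and 58.1 at the native lamina (1.51, SE 0.29, edgeR adjusted p 0.0145; 1.33 against the cytosolic fraction, edgeR adjusted p 0.0132). MKI67, the proliferation marker that coats mitotic chromosomes, had 292.7 and 262.9 CPM in nuclei, 249.6 and 258.8 in the cytosolic fraction and 489.1 and 836.8 at the native lamina. ANKRD1, a target of the YAP coactivator, had 4.51 and 5.67 CPM in nuclei, 3.61 and 8.46 in the cytosolic fraction and 43.7 and 18.3 at the native lamina (2.61, and 1.86 without native replicate 1). In each of these 3 the 2 native libraries were above all 4 fraction libraries. At the PFA lamina MKI67 had 167.8 and 206.0 CPM, below all 4 fraction libraries. The log2 fold changes of the PFA lamina over the nuclear fraction were -0.57 for MKI67, 0.08 for MTDH and 0.24 for PPP1R12A. They were 3.0 for ANKRD1, 2.88 for ARRDC3 and 4.72 for LMNB1.

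ANKRD1 belonged to a list of 18 YAP targets in which AMOTL1 (1.03) and TEAD1 (1.12) were the other calls. These 3 higher genes were 16.7% of that list, against 3.87% of all genes. The 7 genes had a median exonic length of 5944 bases, against 3161 for all genes tested. Without native replicate 1, native replicate 2, nuclear replicate 1 or nuclear replicate 2, 3, 3, 0 and 0 of the 7 were still higher than the nuclear fraction by the test. With upper-quartile factors MKI67, PPP1R12A and MTDH were not.

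**Figure D4:**
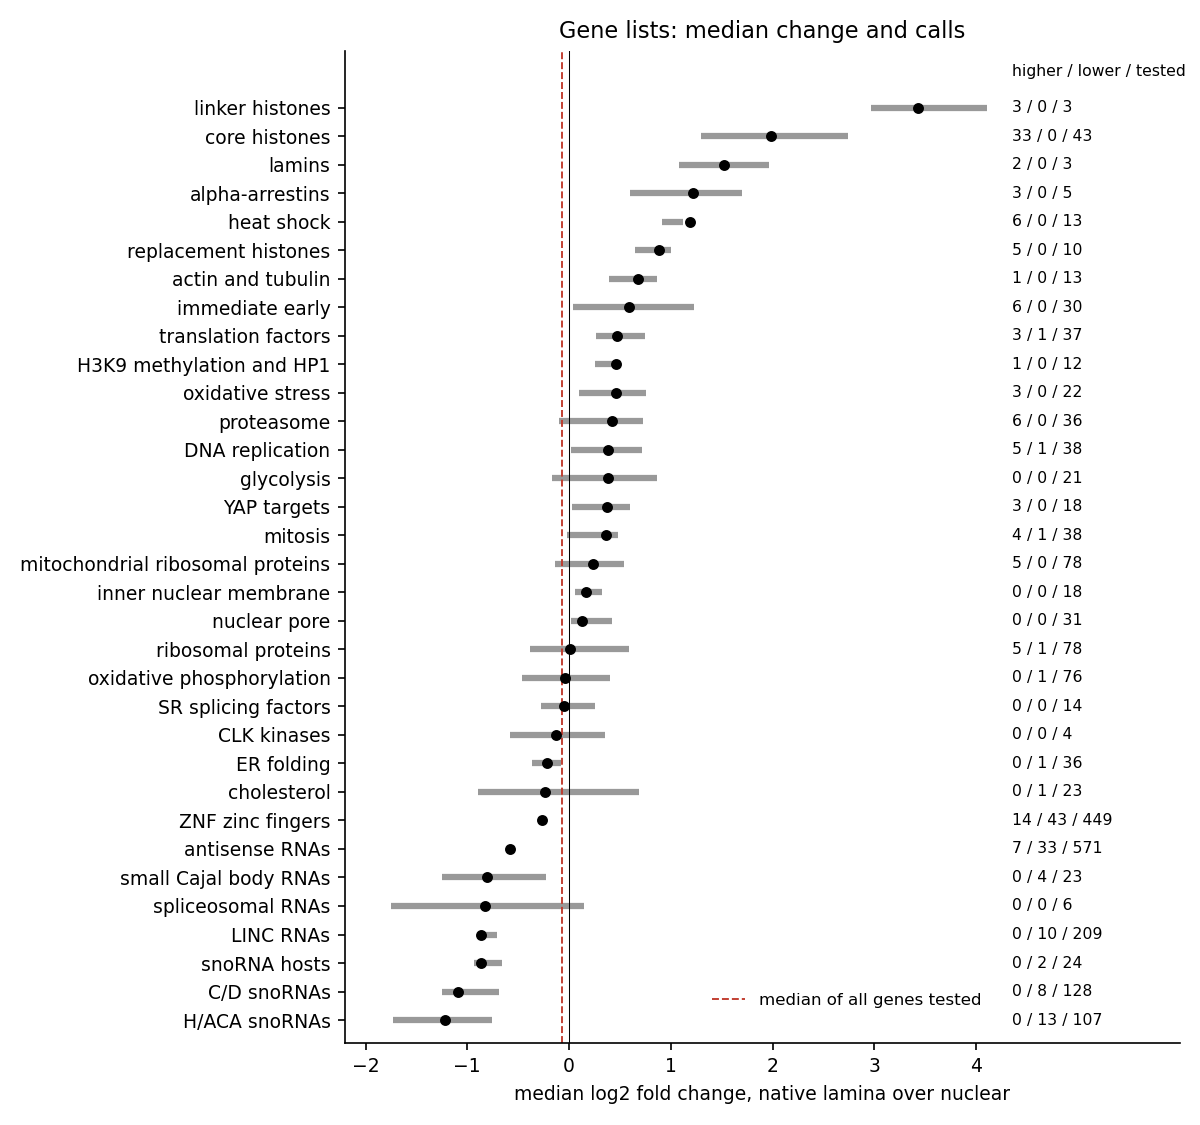
For 33 gene lists, points give the median log2 fold change, native lamina over nuclear, and grey bars its range when each native library is set against each nuclear library on log2(CPM + 0.5), so a fitted point can lie outside its bar. The numbers at the right count genes higher, lower and tested, and the dashed line marks the median of all genes, -0.07; linker histones (3.42) and H/ACA small nucleolar RNAs (-1.22) are at the ends.

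A few rows with miRNA names were among the most abundant and most strongly lower features. Of all 136 such rows tested, 8 were lower (5.88%, against 3.44% of all genes) and 2 higher, and their median log2 fold change of -0.09 was near that of all genes. Mature sequences are shown, from RefSeq on GRCh38.p14, with the seed (bases 2 to 8) in capitals, because the rows carry these names although the libraries measure longer RNA.
hsa-miR-3648, chr21:8987026-8987046, plus strand: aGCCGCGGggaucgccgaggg
hsa-miR-663a, chr20:26208243-26208264, minus strand: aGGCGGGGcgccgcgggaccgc
hsa-miR-663b, chr2:132256970-132256991, minus strand: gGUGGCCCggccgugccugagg

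The 3 mature sequences have different seeds and consist of 81.0% to 90.9% G and C. The rows MIR3648-1 and MIR3648-2 have the same hg19 interval (chromosome 21, 9825832 to 9826011) and so the same counts, and so do MIR3687-1 and MIR3687-2 (9826203 to 9826263). Sequences like these hairpins are known to occur in the ribosomal RNA precursor. These 2 intervals make up 4 of the 8 lower rows. The part of the precursor in these counts was not tested, and the rows are not taken as measures of mature miRNAs.

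MIR3648-1 had 1347 and 2725 CPM in nuclei and 133.2 and 66.6 at the native lamina (-4.35, SE 0.53, edgeR adjusted p 0.00202; -3.74 without nuclear replicate 2). MIR3687-1 had 1991 and 2938 CPM against 157.9 and 100.2 (-4.25, SE 0.43, edgeR adjusted p 6.5e-04). MIR663A (hg19, chromosome 20, 26188822 to 26188914) had 1051 and 1510 CPM against 66.6 and 97.8 (-3.96, SE 0.54, edgeR adjusted p 0.00397), and MIR663B (chromosome 2, 133014539 to 133014653) 280.0 and 355.6 against 19.1 and 17.98 (-4.10, SE 0.43, edgeR adjusted p 8.2e-04). Nuclear libraries were thus about an order of magnitude above native ones in each row. All these calls held with each of the 4 libraries left out. Cytosolic levels were lower still, at 24.3 and 33.2 CPM for MIR3648-1 and 8.29 and 8.46 CPM for MIR663A. The 2 rows of MIR663 were chosen after their values were seen. MIR6087, another abundant miRNA row, had 44820 and 60520 CPM in nuclei and 14810 and 14480 at the native lamina, with no call (-1.85, edgeR adjusted p 0.0663).

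Of the 2 mitochondrial ribosomal RNAs, 1 was called lower. RNR2, the large subunit RNA of the mitochondrial genome (positions 1673 to 3230), took 17.9% and 19.02% of counts in nuclei (95% Wilson intervals 17.88 to 17.94 and 18.99 to 19.05) and 1.49% and 3.20% at the native lamina (1.485 to 1.501 and 3.183 to 3.211). Its log2 fold change was -3.27 (SE 0.84, edgeR adjusted p 0.0374), and -3.90 without native replicate 2. The call was lost with any of the 4 libraries left out, and when at least 10 counts were asked for in every library. RNR1, the small subunit RNA, took 12.5% and 12.3% in nuclei and 5.32% and 4.97% at the native lamina, with no call (-1.56, edgeR adjusted p 0.157). Together they took 30.5% and 31.3% of nuclear counts against 6.82% and 8.16%. The intervals cover counting error only, because copies made by PCR were not told apart by molecular identifiers.

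Small nucleolar RNAs, which guide the modification of ribosomal RNA in the nucleolus, were lower or not called. Of 128 box C/D RNAs tested 8 were lower (6.25%, against 3.44% of all genes), of 107 box H/ACA RNAs 13 (12.1%) and of 23 small Cajal body RNAs, which guide the modification of spliceosomal RNA, 4 (17.4%). None was higher by the edgeR fit of all 8 libraries or by DESeq2, nor at an unadjusted p under 0.05, where 39, 49 and 7 were lower, but 1 Cajal body RNA was called higher with no filter on low counts. Medians were -1.10, -1.22 and -0.81. Before the filter there were 342, 181 and 28 of these RNAs, and an RNA high in nuclei could pass through its nuclear level. With at least 10 counts in every library the medians were -1.16, -1.12 and -0.94, with 7, 8 and 4 lower. Both native libraries lay below both nuclear ones in 104 of the box C/D, 87 of the H/ACA and 15 of the Cajal body RNAs, a pattern of 35.1% of all genes tested.

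SNORD17 (chromosome 20, 17943353 to 17943589) had 702.5 and 847.4 CPM in nuclei and 63.5 and 26.8 at the native lamina (-4.09, SE 0.42, edgeR adjusted p 6.5e-04; -4.84 without native replicate 1). SNORD15B (chromosome 11, 75115465 to 75115610) had 286.4 and 292.6 CPM against 19.96 and 3.98 (-4.57, SE 0.62, edgeR adjusted p 0.00397; -6.16 without native replicate 1 and -3.84 without native replicate 2). SNORA53 (chromosome 12, 98993413 to 98993662) had 122.8 and 122.2 CPM against 19.6 and 15.9 (-2.78, SE 0.28, edgeR adjusted p 6.5e-04). It was also below its cytosolic levels of 71.0 and 68.5 CPM. In these 3 RNAs the nuclear replicates lay close together and the call held with each library left out. SNORA73B, known as U17b, had 1022 and 1249 CPM against 158.2 and 34.5 (-3.56, with -5.03 without native replicate 1 and -2.83 without native replicate 2).

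The small nucleolar and Cajal body RNAs together took 0.664% and 0.715% of counts in nuclei, 0.358% and 0.267% at the native lamina and 0.290% and 0.238% in the cytosolic fraction. With RNR1, RNR2, MIR6087 and LMNB1 left out of the totals these shares were 1.02% and 1.13% in nuclei and 0.432% and 0.306% at the native lamina. Without native replicate 1, native replicate 2, nuclear replicate 1 and nuclear replicate 2 the box C/D calls numbered 4, 3, 2 and 2, the H/ACA calls 11, 2, 1 and 1, and the Cajal body calls 1, 0, 0 and 0. Their host genes had SNHG3 (-1.20) and SNHG19 (-2.11) lower of 24 (8.33%, against 3.44% of all genes), and neither was called with total counts.

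Of 1222 genes that RefSeq classes as lncRNA, 75 were lower (6.14%, against 3.44% of all genes) and 9 higher (0.736%, against 3.87%), with a median log2 fold change of -0.72. The split depended on the scaling: 34 were lower and 20 higher with total counts, and 35 and 32 with total counts without LMNB1, with medians of -0.44 and -0.35. Of 209 tested with LINC symbols, 10 were lower (4.8%) and none higher. Of 571 with antisense symbols 33 were lower (5.8%) and 7 higher (1.2%), against 3.44% and 3.87% of all genes. Before the filter there were 1534 LINC and 1100 antisense genes, and an RNA high in nuclei could pass through its nuclear level. With at least 10 counts in every library, 2 LINC and 20 antisense RNAs were lower, with medians of -0.35 and -0.43. The lncRNA class then had 39 lower and a median of -0.38. With total counts the antisense split became 18 lower and 12 higher, and without LMNB1 18 and 17. LINC01355 (chromosome 1, 23607802 to 23612011) had 66.1 and 48.5 CPM in nuclei and 6.76 and 5.60 at the native lamina (-3.20, SE 0.61, edgeR adjusted p 0.0142). LINC01004 had 98.1 and 105.0 CPM against 15.6 and 22.7 (-2.41), and LINC00641 201.2 and 197.2 against 69.4 and 64.4 (-1.57). The cytosolic levels of LINC01355, 0.802 and 1.69 CPM, and of LINC01004, 1.07 and 2.54 CPM, were lower than the native ones in every library.

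Most of the well-known nuclear RNAs had no call. MALAT1, a nuclear speckle RNA whose interval holds the antisense gene TALAM1 with the same counts, had 10960 and 16520 CPM in nuclei and 5456 and 12250 at the native lamina, which overlap (-0.64, edgeR adjusted p 0.538). NEAT1, the scaffold of paraspeckles, had 1858 and 5094 CPM against 749.8 and 1130 (-1.89, edgeR adjusted p 0.103), and both native libraries lay below both nuclear ones although the difference was no call. FTX was the 1 of 9 such RNAs called (-2.03, edgeR adjusted p 0.0399), and not with total counts. Strand was ignored in counting, so antisense genes share reads with the genes they overlap. Of the 7 higher ones VIM-AS1 (1.40) and TMPO-AS1 (1.30) share exonic bases with VIM and TMPO, as THUMPD3-AS1 (-2.09) does with THUMPD3 among the lower ones. Of the LINC, antisense and well-known nuclear lists, no more than 1 gene was called with any 1 of the 4 libraries left out.

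Zinc finger genes with ZNF symbols, a large family of which many encode repressors that bind transposons, were called in both directions. Of 449 tested, 43 were lower (9.58%, against 3.44% of all genes) and 14 higher (3.12%, against 3.87%). ZNF768 (1.62), ZNF503 (1.34), ZNF703 (1.28) and ZNF664 (1.23) were the most abundant of those called, all of them higher. ZNF768 had 60.9 and 89.0 CPM in nuclei and 209.0 and 252.6 at the native lamina (SE 0.30, edgeR adjusted p 0.0134). The direction of the family depended on scaling: its median of -0.27 became 0.01 with total counts, where 17 were lower and 29 higher. Without native replicate 1, native replicate 2, nuclear replicate 1 and nuclear replicate 2 there were 4, 5, 0 and 1 lower and 3, 1, 0 and 0 higher.

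Where called genes had 300 or more exonic bases, lay on 1 chromosome and had at least 50 counts in each nuclear library, LOC105369632 fell most (-4.49, -5.18 without native replicate 2), followed by MUC6, a gel-forming mucin gene, with 28.2 and 32.1 CPM in nuclei and 1.25 and 1.77 at the native lamina (-4.32, SE 0.77, edgeR adjusted p 0.0124). C20orf173 and MIR194-2HG came next, but C20orf173 had 3 counts in native replicate 1, which is the floor. These 2 genes and CEP295NL lost their call under the Wald test of DESeq2. Also named by this rule were CEP295NL (-4.03), LOC100335030 (-3.90), C9orf84 (-3.87), EPHX3 (-3.85), EVI2A (-3.84), MINOS1P1 (-3.75), HEATR9 (-3.75) and P2RY14 (-3.72). SNORD15B (-4.57) and MIR3648-1 (-4.35) lie below that length and were not ranked here. In the 12 genes the native libraries had 3 to 19 counts each. LOC100335030 was still called without native replicate 2, and no other call of the 12 held with a library left out.

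A further 27 genes, 0.164% of those tested, were called lower at the native lamina than in either fraction. SKP1, an adaptor of ubiquitin ligases, had 89.6 and 90.4 CPM in nuclei, 112.4 and 94.1 in the cytosolic fraction and 39.0 and 34.5 at the native lamina (-1.29, SE 0.26, edgeR adjusted p 0.0181; -1.49 against the cytosolic fraction). CYCS, encoding cytochrome c, had 149.2 and 120.6 CPM in nuclei, 98.3 and 114.8 in the cytosolic fraction and 48.9 and 62.5 at the native lamina. SNRPE, a core protein of spliceosomal particles (-1.54), UBE2B, a ubiquitin-conjugating enzyme (-1.29), KDELR3, a retrieval receptor of the endoplasmic reticulum (-1.52), and RPS21 (-1.55) were among them, as were SNORA53, SNORD133 and RN7SL3. The median exonic length of the 27 genes was 1734 bases, although SKP1 (2699), UBE2B (2634) and CYCS (5538) were longer, against 5944 for the 7 genes above both fractions, and all these genes were chosen after their values were seen, by the calls themselves. With total counts 18 of the 27 were still lower than the nuclear fraction, and 4, 2, 1 and 1 were without native replicate 1, native replicate 2, nuclear replicate 1 and nuclear replicate 2.

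Over 5 equal classes of protein-coding genes by exonic length, divided at 1995, 2930, 4077 and 5871 bases, the median log2 fold change was -0.10, -0.10, -0.02, 0.06 and 0.14 from the shortest to the longest. The spread over the 4 pairings of a native with a nuclear library was wide for the shortest class, -0.333 to 0.139. That range covers the medians of the middle classes, and the median of the longest class, 0.144, lies just above it. For the longest it was 0.04 to 0.24. The cytosolic over nuclear medians ran in the other direction, from 0.71 to -0.28, and those comparisons share the nuclear libraries. The shares called were 4.13% to 5.27% higher in 4 of the 5 classes and 3.63% in the second shortest.

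**Figure D5:**
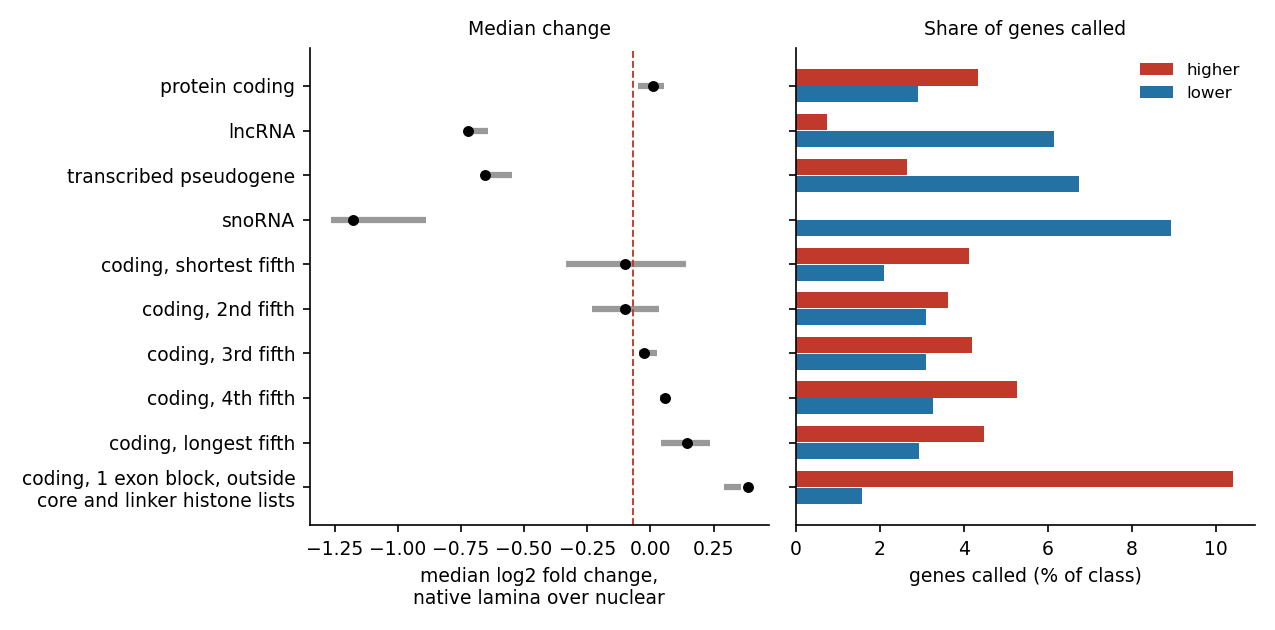
The left panel gives the median log2 fold change, native lamina over nuclear, of gene classes with grey bars for its range over the 4 pairings of libraries on log2(CPM + 0.5), and the right panel the percentage of each class called higher (red) and lower (blue). The lncRNA, pseudogene and snoRNA classes lie below the dashed median of all genes, and coding genes of 1 exon block have the largest share called higher, 10.4%.

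By position, chromosome 6 had 59 of 732 genes higher (8.06%, against 3.87% of all genes). With the histone genes left out it had 29 of 695 (4.17%), near the share of all genes. Chromosome X had 30 of 528 higher (5.68%) and 10 lower (1.89%, against 3.44% of all genes), with a median of 0.22, against -0.07. The other autosomes ran from 2.43% (chromosome 14) to 4.82% (chromosome 13) higher. Genes in lamina-associated domains, large regions of silent chromatin that contact the lamina, could be placed only by the lists of HCT116, a colorectal carcinoma line. Of 194 genes wholly inside such a domain in G1, S and G2, 12 were higher (6.19%) and 13 lower (6.70%), and of 15695 outside all of them 609 (3.88%) and 539 (3.43%). Their medians were -0.05 and -0.07. The RNA was measured in one cell line and the domains in another, and the difference was not tested.

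Several groups had no call or 1 call, where over all genes 3.87% were called higher and 3.44% lower. None of 14 SR splicing factor genes, 4 CLK kinase genes and 21 genes of glycolysis and low oxygen was called by edgeR. At an unadjusted p under 0.05, 3 SR genes were higher and 1 lower, no CLK gene passed, and 2 glycolysis genes lay each way. The Wald test of DESeq2 called 1 glycolysis gene each way and none of the others, and the fit of only the 4 libraries compared called 3 SR and 3 glycolysis genes higher, 1 of each lower and no CLK gene. CLK1, whose message keeps introns in the nucleus, had 72.2 and 112.5 CPM in nuclei and 59.8 and 86.5 at the native lamina (-0.34, edgeR adjusted p 0.584), CLK2 had 0.23, CLK3 0.09 and CLK4 -0.61. GAPDH had 257.3 and 728.6 CPM against 650.8 and 782.9 (0.54, edgeR adjusted p 0.525). ACTB, encoding beta-actin, was the 1 of 13 actin and tubulin genes called, with 389.7 and 369.6 CPM in nuclei and 1144 and 980.2 at the native lamina (1.48, SE 0.35, edgeR adjusted p 0.0291). Its cytosolic levels of 2157 and 2099 CPM were above both native levels. NEFL, a neurofilament gene that HEK293 cells express, had 39.5 and 40.0 CPM against 157.7 and 232.1 (2.29, SE 0.31, edgeR adjusted p 0.00366). SPCS2 (-1.79) was lower of 36 genes of the endoplasmic reticulum and TM7SF2 (-1.30) of 23 of cholesterol synthesis, neither of them with total counts. ACTB lost its call with any 1 library left out, and NEFL with either nuclear replicate.

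Genes of the response to oxidants were examined because APEX2 labelling uses hydrogen peroxide. Of 22 tested, PRDX2 (1.37), SRXN1 (1.30) and GPX4 (1.21) were higher (13.6%, against 3.87% of all genes) and none lower (against 3.44%). PRDX2, a peroxiredoxin, had 22.9 and 39.7 CPM in nuclei, 91.5 and 69.7 at the native lamina and 201.5 and 203.8 in the cytosolic fraction. The cytosolic over nuclear median of the list was 1.875, and the native over cytosolic median -1.111. An effect of peroxide on these genes was not tested. GPX4 and SRXN1 were not called with upper-quartile factors, and no call of the list was kept with any 1 of the 4 libraries left out, where 1 other gene was lower without native replicate 1 (edgeR). Metallothionein genes had no call among 3 tested by edgeR or DESeq2, with a median of -0.29, which became 0.01 with total counts, and 1 lower at an unadjusted p under 0.05. The 6 small nuclear RNAs of the spliceosome that were tested had no call by either tool, with a median of -0.83 and 1 lower at an unadjusted p under 0.05.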

How the data were processed

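The deposited RNA values are raw read counts per gene symbol. The authors counted exonic reads with featureCounts 1.5.2 on hg19 with the RefFlat annotation, ignoring strand and counting a read for each gene it overlaps, per the file headers. The submitters' processing notes also name TopHat2 2.1.1 and Bowtie2 2.3.2. The deposited domain lists hold intervals without scores.

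Genes were kept with filterByExpr by group, scaled by TMM and tested with edgeR 4.0.16 (R 4.3.3) in 1 quasi-likelihood fit of all 8 RNA libraries, with 1 coefficient per group, no block and 4 residual degrees of freedom. P-values were adjusted by Benjamini-Hochberg over 16504 genes and called under 0.05. The script was tested on simulated data. The labels do not say that replicates came from separate cultures, so p-values measure only the spread between these libraries, which may be technical. The members and lists were chosen with earlier results of these data known.

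Named genes were the 12 largest changes each way among called genes (on 1 chromosome, 300 or more exonic bases, 50 or more counts in both libraries of the group that was higher); up to 4 called members per list by mean CPM; all lamins, alpha-arrestins and CLK kinases; 6 fixed genes; the 5 most abundant called each way; and all called above both fractions. Other genes were chosen after their values were seen. The floor is 3 counts (0.351 to 0.501 CPM in the 4 libraries). Symbols matched RefSeq GRCh38.p14 for 16108 of 16504 genes, and list members by older symbols where needed. MiR-3687 had no mature sequence in the tables used. Alternatives were other scalings, filters, sets of libraries, a minimum change, the Wald test of DESeq2 1.42.0, a replicate block and leaving out each library. Single members of 2 lists are not reported here.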

Additional observations from a re-analysis of the deposited data

How the results depend on the processing

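Against 639 higher and 568 lower genes, the counts were 2013 and 2355 with only the 4 libraries compared, 1472 and 2200 without the PFA libraries, 1240 and 1469 with no filter, 13 and 10 with a minimum change of 2-fold, and 1656 and 237 with total counts. The Wald test of DESeq2 gave 963 higher, and upper-quartile factors gave 412. Leaving out 1 library gave 1 to 134 higher and 9 to 45 lower. A replicate block gave 961 and 885, and with only the 4 libraries 2613 and 2913; the libraries share only a number in the labels, and deviations of same-numbered native and nuclear libraries correlated at 0.158. These 3 settings were chosen after seeing the data: the block with only the 4 libraries, total counts without LMNB1 (2101 and 218), and total counts without RNR1, RNR2 and MIR6087 (345 higher, 851 lower).

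With total counts, and with total counts without LMNB1, list medians turned above 0 for zinc fingers (0.008 and 0.087), the endoplasmic reticulum list (0.091 and 0.172), oxidative phosphorylation (0.266 and 0.354), cholesterol synthesis (0.058 and 0.152), metallothioneins (0.007 and 0.091), SR factors (0.247 and 0.326) and CLK kinases (0.171 and 0.246). With total counts without RNR1, RNR2 and MIR6087 they turned below 0 for the inner membrane list (-0.043), nuclear pores (-0.08), polymerase III RNAs (-0.027), the proteasome core (-0.022), ribosomal proteins (-0.196) and all protein-coding genes (-0.209), and with upper-quartile factors for nuclear pores (-0.013), ribosomal proteins (-0.131) and protein-coding genes (-0.14). With DESeq2 size factors, ribosomal proteins (-0.01) and protein-coding genes (-0.012) also turned. Filters, sets of libraries or a replicate block turned the medians of oxidative phosphorylation, cholesterol synthesis, SR factors, ribosomal proteins and protein-coding genes. Leaving out 1 library turned those, and the medians of polymerase III RNAs, mitochondrial ribosomal proteins, metallothioneins, CLK kinases, the proteasome core and the HCT116 markers. The block with only the 4 libraries called 2 box C/D RNAs and 1 Cajal body RNA higher. Relative to all genes, medians changed sign for single-exon genes with at least 10 counts in every library (0.158, and 0.044 without histone genes), for 2 to 4 exon blocks (0.036, and 0.077 with no filter), for 10 to 19 blocks (-0.013) and for the second exonic length class with no filter (0.080), as other genes were tested. The cause was not tested for the scalings. The residual spread rests on 8 libraries in pairs, and the fits with 1 library left out assume that the lone library varies like the other groups.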
